A study of Mus musculus with 48 samples.

Results

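The 8 libraries labelled striatum were compared with the 8 labelled cortex from the same 8 wild-type mice, which are 16 of the 48 libraries of the series. They were chosen by genotype and tissue label alone and paired by the animal number in the library name. The series sequenced RNA from 3 brain regions (cerebellum is the third) of mice that carry a deletion of the chromosome 7 segment 7qF3, syntenic to human 16p11.2, and of wild-type controls. The wild-type animals carried no deletion, were on a mixed C57BL/6N:129Sv background and comprised 4 males (W805, W806, W807 and W808) and 4 females (W813, W814, W815 and W816). The age field of the labels holds a date, which splits these animals as sex does, so sex and that date cannot be told apart. No treatment is named. Each library was made with a stranded kit for polyadenylated RNA.

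Gene counts summed to between 29921314 and 34013207 in the striatum-labelled libraries and to between 30097810 and 36507597 in the cortex-labelled ones. At least 1 count was found for 23554 ± 427 genes (SD, n = 8) in striatum-labelled and 22949 ± 480 in cortex-labelled libraries, and the number was higher in the striatum-labelled library in 8 of 8 animals (exact sign-flip permutation test, 2-sided p = 0.0078, the smallest these 8 pairs can give, and 0.031 after adjustment over 4 library measures). The mitochondrially encoded share was 3.30 ± 0.91% and 3.68 ± 0.63% (p = 0.336 by the same exact test).

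The cortex is a layered sheet whose projection neurons release glutamate, and its identity depends on transcription factors such as Tbr1 and Emx1. The striatum lies beneath it and consists mostly of GABA-releasing medium spiny neurons, which receive cortical glutamate and midbrain dopamine. Those of the direct pathway carry the dopamine receptor Drd1 with the peptides substance P (Tac1) and dynorphin (Pdyn), and those of the indirect pathway carry Drd2, the adenosine receptor Adora2a and enkephalin (Penk). The striatum borders the septum, pallidum and thalamus, and one side of it faces the lateral ventricle, which is lined by ependyma and holds choroid plexus.

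The labels were first checked against the markers of each region. The mean log2 CPM (the count of a gene scaled to a common library size) of 20 medium spiny neuron markers ran from 5.15 to 8.17 (median 6.50) in striatum-labelled libraries and from 5.13 to 7.68 (median 6.36) in cortex-labelled ones. It was higher in the striatum-labelled library in only 3 of 8 animals, W806, W808 and W814. The striatum-labelled libraries of W805, W807 and W813 stood at 5.38, 5.43 and 5.15, as low as the lowest cortex-labelled ones. The cortex-labelled libraries of W805, W806, W815 and W816 stood at 7.45, 7.40, 7.02 and 7.68. In these 7 libraries the defining markers of the medium spiny neuron therefore go against the label, and tissue is named here only as labelled.

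The lists that follow include some that divided the labels and some that did not. The mean log2 CPM of 16 markers of glutamatergic cortical neurons ran from 4.0 to 7.17 in striatum-labelled and from 7.23 to 7.85 in cortex-labelled libraries and was lower in the former in 8 of 8 animals. The striatum-labelled libraries of W813, W814 and W815 stood at 7.15, 7.05 and 7.17, close to the cortex-labelled range. Markers of neighbouring regions also differed. The mean log2 CPM of 18 hypothalamus and basal forebrain markers ran from 1.67 to 6.67 in striatum-labelled and from -0.57 to 2.25 in cortex-labelled libraries, with W807 and W813 the highest at 6.67 and 5.35. Thalamus markers (16 genes) ran from 3.60 to 5.93 and from 2.53 to 4.59, the highest cortex-labelled value being that of W815. Choroid plexus and ependymal markers (19 genes) reached 5.69 and 4.19 in the striatum-labelled libraries of W816 and W813 and 4.73 in the cortex-labelled library of W813, against -0.45 to 2.70 in the other 13. Hippocampus markers (16 genes) did not divide the labels: they ran from 2.55 to 5.29 (median 3.27) in striatum-labelled and from 2.73 to 4.68 (median 3.33) in cortex-labelled libraries, higher in the former in 5 of 8 animals, and the highest library under each label was that of W813. Oligodendrocyte and myelin markers (22 genes) were also higher in 5 of 8 animals. In bulk tissue, fewer cells of a type and less RNA per cell cannot be told apart.

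**Figure D1:**
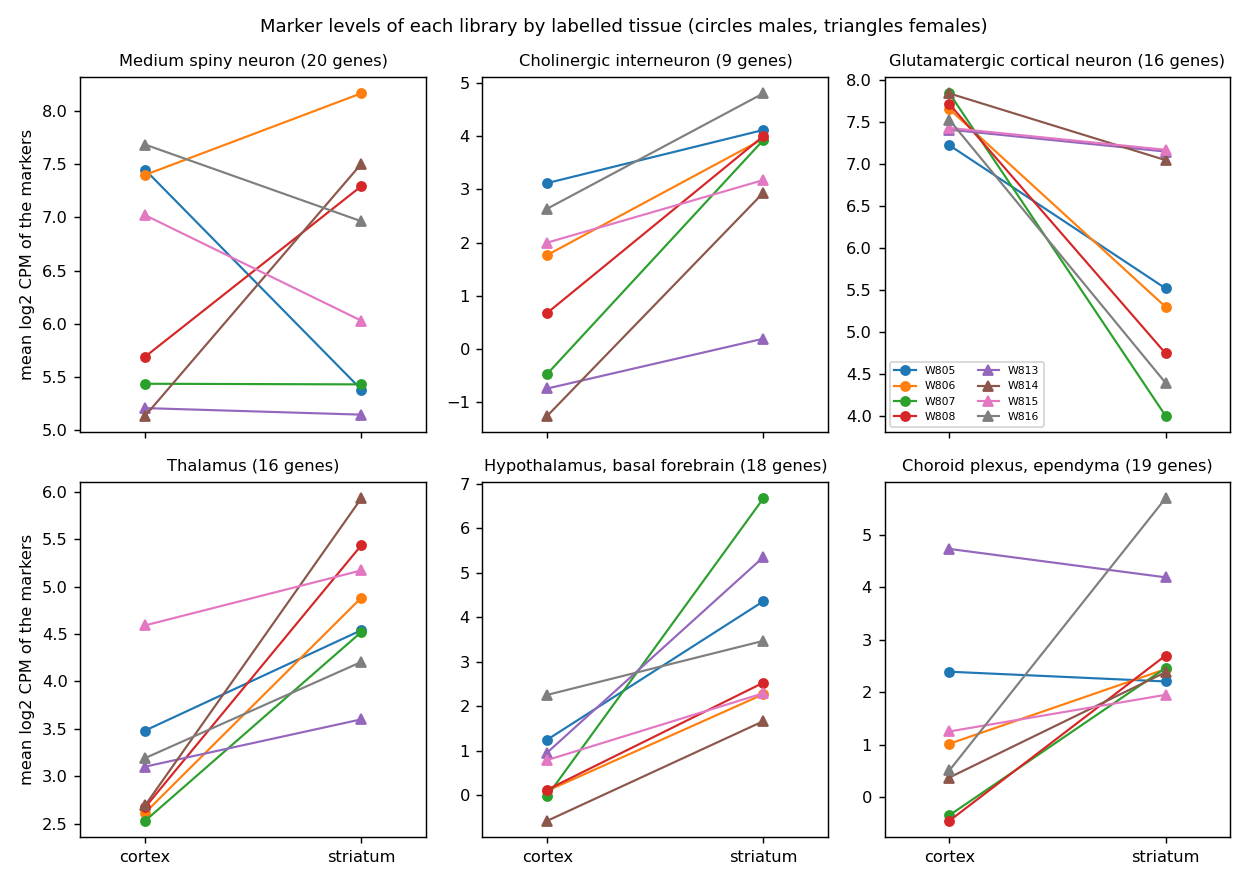
Mean log2 CPM of 6 marker lists (y axes, which differ between panels) in the cortex-labelled and the striatum-labelled library of each of the 8 wild-type animals, joined by lines and coloured by animal. The lines of the medium spiny neuron markers cross, with a higher striatum-labelled value in 3 of 8 animals, while those of the glutamatergic cortical markers fall in all 8.

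By edgeR's quasi-likelihood test with the animal as a block and Benjamini-Hochberg adjustment over 17059 genes tested, 2830 genes were higher in striatum-labelled libraries (16.6% of those tested) and 2688 were lower (15.8%) at an adjusted p under 0.05. With a fitted difference of at least 2-fold as well, 910 were higher (5.33%) and 526 lower (3.08%), together 8.42%. The median log2 fold change over all genes tested was -0.0015. The list counts of this fit given below are to be read beside the shares of 16.6% and 15.8%. The difference was positive in all 8 animals for 1906 genes (11.2%) and negative in all 8 for 1674 (9.81%). The 2 groups of libraries did not overlap for 408 higher genes (2.39%) and 224 lower genes (1.31%). Without W805, W807 and W813, whose striatum-labelled libraries had the lowest medium spiny neuron markers, 2522 genes were higher and 2457 lower. With only the 5 striatum-labelled libraries of highest and the 4 cortex-labelled libraries of lowest medium spiny neuron markers, and no animal block, 2893 were higher and 2601 lower. Both of these sets were selected on medium spiny neuron markers, so their values for those genes are a description only.

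None of the 20 medium spiny neuron markers shared by both pathways passed the test in the paired fit, against the 16.6% and 15.8% of all genes, and at an adjusted p under 0.05 the direct pathway list had 2 of 9 members higher and 1 lower, and the indirect list 2 of 6 higher. Without W805 the direct list had 4 higher, without W816 the indirect list had 1, and without W806 or W814 1 of the 20 shared markers was lower. The median log2 fold change of the 20 shared markers was 0.19, with members from -1.0 to 0.75. Drd1, the dopamine receptor of the direct pathway, measured 161 CPM in the striatum-labelled and 63.6 CPM in the cortex-labelled library of W806, and 92.3 and 8.99 CPM in those of W814. In W805 the order was the opposite, with 7.89 CPM in the striatum-labelled and 95.4 CPM in the cortex-labelled library. Across the 8 pairs Drd1 was higher in 4 and lower in 4, with a log2 fold change of 0.14 ± 0.68 (SE, adjusted p = 0.891).

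Drd2, the dopamine receptor of the indirect pathway, ran from 3.37 to 88.5 CPM (median 31.7) in striatum-labelled and from 0.286 to 49.4 CPM (median 16.1) in cortex-labelled libraries. The groups overlapped over most of their range, and the difference of 1.39 ± 0.86 did not pass the test (adjusted p = 0.238). The 4 cortex-labelled libraries of W807, W808, W813 and W814 held 0.286 to 2.42 CPM of Drd2, and the other 4 held 29.9 to 49.4. The enkephalin precursor Penk ran from 93.2 to 1273 CPM and from 70.5 to 623 CPM in the 2 groups, and the dynorphin precursor Pdyn from 26.5 to 172 and from 22.0 to 77.1. Neither passed the test (0.50 ± 0.62 with an adjusted p of 0.562, and 0.67 ± 0.34 with 0.162), nor did Tac1, the substance P precursor (0.88 ± 0.49, 0.201), or Adora2a (0.21 ± 1.08, 0.901). Ppp1r1b, the dopamine-regulated phosphatase inhibitor DARPP-32, had a median of 191 CPM in striatum-labelled and 304 CPM in cortex-labelled libraries (-0.40 ± 0.73, 0.704). Arpp21, a cyclic AMP-regulated phosphoprotein present in both regions, had the lowest fitted value of the list (-1.0 ± 0.39, 0.0769).

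In the 5 against 4 libraries that were selected on these markers, 19 of the 20 shared markers were at an adjusted p under 0.05, with a median of 1.93. That fit called 16.7% of all genes higher and 15% lower. Drd1, Drd2, Penk and Ppp1r1b then stood at 2.73, 5.18, 2.61 and 2.10. Without W805, W807 and W813, 1 of the 20 was higher and the median was 0.48, in a fit that called 14.7% of all genes higher. Those animals too were left out for their low values of these markers, so these values describe and test nothing. Several other genes of striatal neurons differed in the paired fit of all 8 animals. Isl1, a LIM-homeodomain factor of direct-pathway and cholinergic neurons, ran from 9.80 to 25.8 CPM in striatum-labelled libraries and from 0 to 8.20 CPM in cortex-labelled ones, with no overlap (3.26 ± 0.74, adjusted p = 0.0091, higher in 8 of 8 animals). Sp9, a zinc finger factor needed for indirect-pathway neurons, was higher as well (1.34 ± 0.33, 0.0128, 7 of 8). The kainate receptor Grik3 was higher by 0.48 ± 0.13 (0.0174) and had an adjusted p of 0.0505 without W816. Eya1, a transcriptional coactivator listed with the direct pathway, was lower (-0.86 ± 0.20, 0.0112).

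Of the 24 transcription factors of the striatal lineage, 12 were higher and none was lower, and the median was 0.81. Nkx2-1, which specifies the ventral part of the subpallium and the pallidum, rose furthest among them, from a median of 0.555 CPM in cortex-labelled to 9.68 CPM in striatum-labelled libraries (3.94 ± 0.61, adjusted p = 0.0014). Nkx2-1 is also listed with the hypothalamus and basal forebrain markers and the GABA interneuron markers, and the share of each region was not tested. Six3, a factor of striatal precursors, ran from 15.3 to 48.0 CPM and from 0.0318 to 13.7 CPM without overlap (2.90 ± 0.79, 0.0198). Dlx1, Dlx2, Dlx5 and Dlx6, the homeobox genes of GABAergic forebrain neurons, were each higher in 8 of 8 animals, by 1.25, 1.40, 0.94 and 0.98. Foxp1 and Meis2, which are abundant in medium spiny neurons, did not pass the test, at -0.46 ± 0.28 (adjusted p = 0.234) and -0.07 ± 0.44 (0.918).

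Cholinergic interneurons are the large, sparse striatal cells that release acetylcholine, and 8 of their 9 markers were higher in striatum-labelled libraries, all by at least 2-fold, with a median of 2.55. Without the animal block 3 of the 9 passed the test, in a fit that called 9.77% of all genes higher and 8.93% lower. Lhx8, the LIM-homeodomain factor that directs the cholinergic fate, ran from 0.0971 to 28.2 CPM (median 12) against 0 to 7.31 CPM (median 1.26), a difference of 3.22 ± 0.64 (adjusted p = 0.0049, 8 of 8 animals). Ecel1, an endopeptidase-like protein, had medians of 110 and 12.3 CPM (3.10 ± 0.41, 0.00078). Chat, the enzyme that makes acetylcholine, ran from 0.227 to 31.5 CPM and from 0.269 to 13.9 CPM, overlapping widely. Its difference of 2.01 ± 0.58 passed the test at an adjusted p of 0.0246 but not without W808, W814 or W816 (0.0583, 0.0524 and 0.0554). The only member that was not called was Slc17a8, a vesicular glutamate transporter that these cells carry, at 0.70. In the striatum-labelled library of W813 the mean log2 CPM of the list was 0.20, against 2.94 to 4.80 in the others. These genes are also expressed by cholinergic cells of the septum and pallidum, whose list was higher for 9 of 13 members and lower for 2 (1 without W808 or W814), and the share of each region was not tested.

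Of 16 markers of glutamatergic cortical neurons, 14 were lower in striatum-labelled libraries, 1 was higher, and the median was -1.96. Leaving out 1 animal in turn left 10 to 15 lower, with 10 for W808 or W816 and 11 for W805 or W806. Slc17a7, the vesicular glutamate transporter of cortical projection neurons (chromosome 7, 45163949 to 45176142, GRCm38), ran from 6.07 to 865 CPM (median 96.3) in striatum-labelled and from 1025 to 1487 CPM (median 1195) in cortex-labelled libraries. The groups did not overlap, but W813, W814 and W815 held 865, 555 and 652 CPM in their striatum-labelled libraries, and the other 5 held 6.07 to 135. The fitted difference was -3.59 ± 1.03 (adjusted p = 0.0247, lower in 8 of 8), and the adjusted p was 0.0661, 0.0614 and 0.0569 without W806, W808 or W816. Emx1, a homeobox gene of the dorsal forebrain, and Slc30a3, the zinc transporter of synaptic vesicles, were lower by similar amounts (-3.29 ± 0.73 and -3.20 ± 0.71, both with an adjusted p of 0.0082). Nrgn, the postsynaptic calmodulin-binding protein neurogranin, ran from 88.0 to 1161 CPM against 577 to 2200 CPM (-2.18 ± 0.41, 0.0039). The exception was Slc17a6, the transporter typical of thalamic and other subcortical neurons, which ran from 62.2 to 157 CPM in striatum-labelled and from 11.7 to 45.5 CPM in cortex-labelled libraries (1.65 ± 0.26, 0.0017).

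Cortical transcription factors followed the same order, with 15 of 26 lower and 2 higher, and a median of -0.98. The number lower was 10 without W816, 11 without W806 and 18 without W815. Tbr1, which specifies deep-layer neurons, had medians of 17.3 and 90.1 CPM (-2.28 ± 0.45, adjusted p = 0.0046). Neurod6, a basic helix-loop-helix factor of cortical projection neurons, had medians of 5.11 and 55.4 CPM but was higher in the striatum-labelled library of 2 of 8 animals and did not pass the test (-3.17 ± 1.16, 0.0613). Eomes, a T-box factor found in precursors and in olfactory bulb neurons, was the largest exception, with 1.47 to 16.1 CPM in striatum-labelled and 0 to 0.760 CPM in cortex-labelled libraries (4.30 ± 0.63, 0.0012). By layer, 5 of 14 markers of layers 2 to 4 and 7 of 20 of layers 5 and 6 were lower, and 1 and 2 were higher (4 of layers 5 and 6 without W805). Cplx3, a complexin of subplate and layer 6 neurons, ran from 1.17 to 7.86 CPM and from 14.7 to 31.4 CPM (-3.19 ± 0.31, 0.00021). Ccn2, a secreted protein that marks the deepest cortical layer, differed by -2.59 ± 0.27 (0.00027), and Lamp5, a membrane protein of upper layers and some interneurons, by -2.16 ± 0.31 (0.0011). All 3 were lower in 8 of 8 animals with no overlap, including the libraries of W813, W814 and W815 in which Slc17a7 was high. Tcerg1l was a layer marker that went the other way (1.25 ± 0.16, 0.00059).

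**Figure D2:**
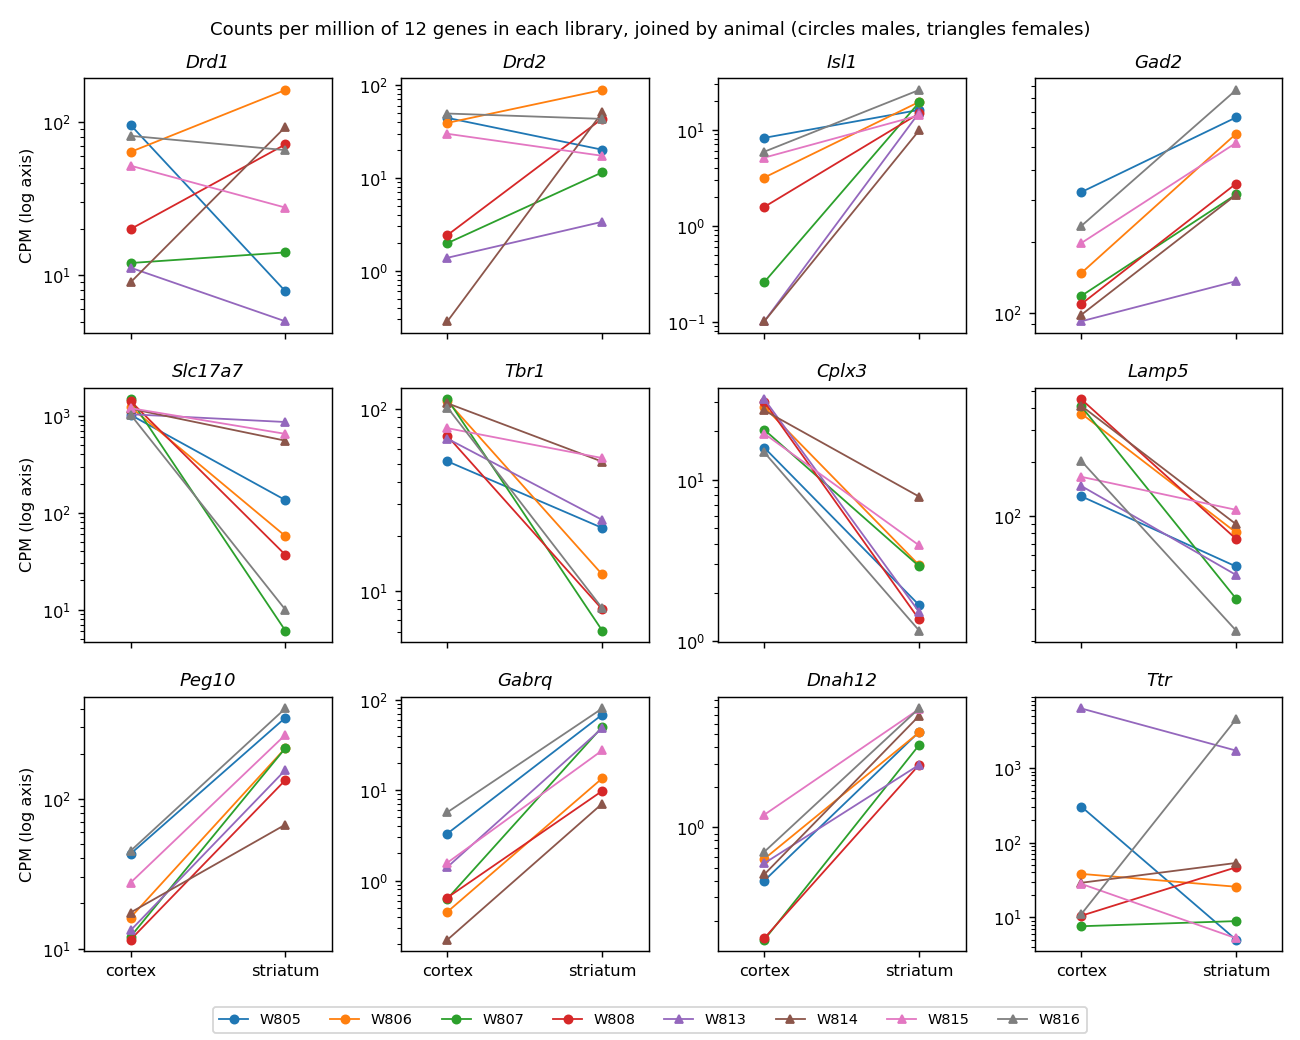
CPM (log axes, which differ between panels) of 12 genes in the cortex-labelled and striatum-labelled library of each animal, joined by animal, with a library at 0 drawn at the lowest value above 0 of that gene. Slc17a7, Tbr1, Cplx3 and Lamp5 fall and Isl1, Gad2, Peg10, Gabrq and Dnah12 rise in 8 of 8 animals, while the lines of Drd1, Drd2 and Ttr cross.

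The genes that make and package GABA were higher, as 9 of 21 genes of GABA synthesis, transport and reception were, with 2 lower (5 without W815). Gad2, one of the enzymes that make GABA from glutamate, had medians of 435 and 133 CPM (1.45 ± 0.15, adjusted p = 0.00027, 8 of 8 animals). Slc32a1, which loads GABA into vesicles, ran from 87.5 to 310 CPM and from 68.9 to 124 CPM (1.10 ± 0.18, 0.0017). Slc6a11, the GABA transporter of astrocytes, differed by 1.63 ± 0.12 (7.5e-05) with no overlap. Among receptor subunits, Gabrg1 was higher by 1.45 ± 0.10 (5.6e-05) and Gabrd, the subunit of extrasynaptic receptors, was lower by -1.45 ± 0.38 (0.0171).

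The 22 interneuron markers split, with 7 higher and 8 lower. The peptide genes Vip, Cck and Cort were among the lower ones. Vip had medians of 13.3 and 51.9 CPM (-2.46 ± 0.54, adjusted p = 0.0074), Cck 53.0 and 345 CPM (-2.53 ± 0.51, 0.0051), and Cort, a relative of somatostatin, 1.74 and 9.08 CPM (-2.43 ± 0.34, 0.00091). Pvalb, the calcium buffer of fast-spiking cells, ran from 12.2 to 53.4 CPM and from 31.1 to 137 CPM (-1.76 ± 0.22, 0.00064), lower in 8 of 8 animals. Calb2, the calcium buffer calretinin, ran from 82.3 to 453 CPM against 14.3 to 73.3 CPM and did not overlap (2.69 ± 0.37, 0.0009). Chodl, a lectin-domain protein of long-range inhibitory neurons, had medians of 5.97 and 0.871 CPM (2.38 ± 0.29, 0.00052). Calb2 is also a thalamus marker, and 11 of the 16 thalamus markers were higher and none lower. Gbx2, a homeobox gene of the thalamus, had medians of 7.06 and 0.233 CPM (3.48 ± 0.81, 0.01), and Zic1, a zinc finger factor of thalamus and septum, 128 and 7.92 CPM (3.23 ± 0.54, 0.0022). The part of these regions in the interneuron values was not tested.

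The genes that led the rises were not among the listed medium spiny neuron markers. Among called genes with at least 1 CPM in 1 tissue and the same sign in all 8 animals, the 15 largest rises were led by Oxt, the oxytocin precursor, Calcr, the calcitonin receptor, Gal, the galanin precursor, and Irs4, an insulin receptor substrate. Oxt ran from 0.678 to 767 CPM (median 47.5) in striatum-labelled and from 0.127 to 11.2 CPM (median 0.180) in cortex-labelled libraries, with a difference of 6.88 ± 1.11 (adjusted p = 0.0019). Its highest libraries were those of W807 and W805, at 767 and 157 CPM, and W816 held 11.2 CPM in its cortex-labelled library against 0.127 to 0.404 in the other 7. Gal had medians of 18.8 and 0.215 CPM (5.51 ± 0.66, 0.0005) and Calcr 12.5 and 0.132 CPM (5.67 ± 0.55, 0.00021). Otp, a homeobox factor of hypothalamic neurons, differed by 4.94 ± 0.99 (0.005). Avp, the vasopressin precursor, reached 1015 CPM in W807 and 134 CPM in W813 but did not pass the test (3.52 ± 1.78, 0.155).

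In all, 10 of 14 hypothalamus and basal forebrain markers were higher and none lower, with a median of 3.46. After leaving out W805, W807 and W813, whose striatum-labelled libraries held the 3 highest levels of this list, 10 were still higher and the median was 2.28. That fit called 14.7% of all genes higher. Peg10, a retrotransposon-derived imprinted gene (chromosome 6, 4747306 to 4760517), ran from 67.1 to 401 CPM and from 11.4 to 44.8 CPM and had a difference of 3.31 ± 0.22 (adjusted p = 5.6e-05). Baiap3, which acts in dense-core vesicle release, had medians of 307 and 15.3 CPM (4.19 ± 0.39, 0.00018), and Magel2, an imprinted gene active in the hypothalamus, 46.7 and 2.17 CPM (3.98 ± 0.36, 0.00016). None of these 3 overlapped between the groups.

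Gabrq and Gabre, the theta and epsilon subunits of GABA receptors, lie together on the X chromosome and were higher by 4.61 ± 0.27 (adjusted p = 5.1e-05) and 4.82 ± 0.45 (0.00018). Gabrq ran from 7.09 to 79.9 CPM in striatum-labelled and from 0.222 to 5.70 CPM in cortex-labelled libraries. It was also 1 of the 5 rises of smallest p, with Zfp92, Tmem255a, Nbeal2 and Irs4. Nbeal2, a BEACH-domain protein, differed by only 1.24 ± 0.07 but in every animal (5.1e-05), from 23.3 to 46.7 CPM against 9.22 to 19.6 CPM.

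A list of 46 imprinted genes was drawn up after Peg10, Dlk1, Asb4, Rtl1 and Calcr were seen among the leading rises, so its counts only describe. Imprinted genes are expressed from 1 parental copy, and many are active in hypothalamic and monoamine neurons. Of 44 tested, 24 were higher and 1 was lower (2 without W816), with a median of 0.44. Dlk1, a secreted Notch-ligand relative, ran from 22.2 to 246 CPM and from 0.413 to 20.6 CPM (4.62 ± 0.61, adjusted p = 0.00075). Asb4, a ubiquitin ligase adaptor, ran from 3.08 to 31.5 CPM and from 0.148 to 1.40 CPM (4.53 ± 0.42, 0.00017). The lower member was Snrpn, a spliceosome protein gene (-0.37 ± 0.08, 0.0097), whose locus also holds Snurf, so reads may be shared. The mean log2 CPM of the list was higher in the striatum-labelled library in 8 of 8 animals.

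**Figure D3:**
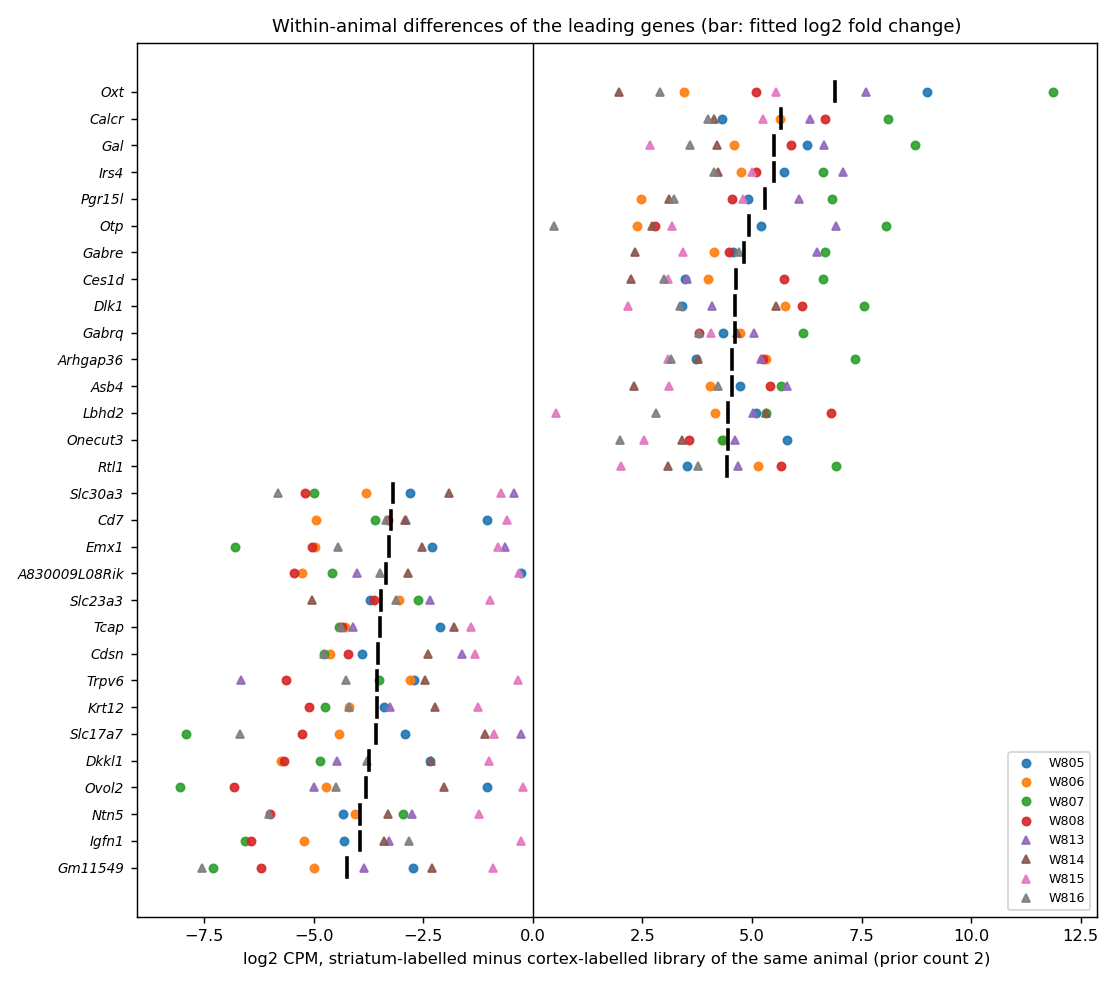
Difference in log2 CPM (x axis) between the striatum-labelled and the cortex-labelled library of each of the 8 animals for the 15 largest rises and 15 largest falls (y axis), coloured by animal, with a black bar at the fitted log2 fold change. By the rule that chose them every point lies on the side of its gene's sign, and those of Oxt spread from W814 at the low end to W807 at the high end.

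Genes of motile cilia were also among the higher genes. Motile cilia beat on the ependymal cells of the ventricle wall, and their dynein arms, spokes and tubulin links are encoded by a large set of genes under the factors Foxj1 and the RFX family. Of 60 tested genes of a list of 63 drawn up after the values were seen, 54 were higher and none was lower, 43 of them by at least 2-fold, with a median of 1.73. Since the list followed the values, its counts only describe. Dnah12, a dynein heavy chain, ran from 2.95 to 7.80 CPM in striatum-labelled and from 0.144 to 1.25 CPM in cortex-labelled libraries (3.48 ± 0.26, adjusted p = 9.4e-05). Dnah3, another heavy chain, was the furthest apart of the list (4.13 ± 0.40, 0.0002). Foxj1 ran from 18.3 to 33.8 CPM and from 1.60 to 11.5 CPM (2.28 ± 0.32, 0.001), and Rfx2 from 5.24 to 9.88 and from 1.95 to 4.21 (1.44 ± 0.16, 0.000405), while Rfx3 did not pass the test (0.07 ± 0.30, 0.883). The striatum-labelled libraries were alike in this list, at a mean log2 CPM of 2.90 to 3.41, and the cortex-labelled ones stood at 0.97 to 2.04.

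RFX proteins bind the X-box, a near-palindrome with an arm on each side. The letters searched for were GTTGCC, 1 arm, and GGCAAC, the same arm read on the other strand. In the RefSeq promoter table (GRCm38.p6), 50 of the 60 cilium genes had an entry. In 15 of them (30%) the 250 bases before the annotated start held at least 1 such arm, on either strand. Of all 27025 genes with an entry, 3195 (11.8%) held one, and of the genes tested that had an entry 12.7% did. The glutamatergic cortical markers, most of which were lower, held one at the same share as the cilium genes, 3 of 10 genes (30%). The promoters printed here are those of the 3 higher cilium genes of largest difference that had a single annotated start and a match, and that of Slc17a7, the lower gene described above, which holds the same letters far from its start. Each is shown 5′ to 3′ on the plus strand, with the matches in capitals.
Spag16, chr1:69826720-69826969: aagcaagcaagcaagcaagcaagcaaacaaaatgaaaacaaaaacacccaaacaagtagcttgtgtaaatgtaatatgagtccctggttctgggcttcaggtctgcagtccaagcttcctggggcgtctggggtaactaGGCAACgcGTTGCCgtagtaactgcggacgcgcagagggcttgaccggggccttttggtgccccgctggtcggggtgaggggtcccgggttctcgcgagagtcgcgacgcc
Dnah10, chr5:124724835-124725084: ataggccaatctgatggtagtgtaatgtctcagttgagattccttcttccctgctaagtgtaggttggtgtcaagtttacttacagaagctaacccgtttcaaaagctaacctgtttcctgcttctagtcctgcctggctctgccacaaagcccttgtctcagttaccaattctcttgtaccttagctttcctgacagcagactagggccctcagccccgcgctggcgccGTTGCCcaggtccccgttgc
Hydin, chr8:110266727-110266976: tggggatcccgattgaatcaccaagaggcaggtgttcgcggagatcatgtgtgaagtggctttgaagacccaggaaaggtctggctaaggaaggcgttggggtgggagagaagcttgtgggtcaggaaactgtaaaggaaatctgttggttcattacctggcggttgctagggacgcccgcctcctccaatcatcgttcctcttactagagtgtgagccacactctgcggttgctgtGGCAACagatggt
Slc17a7, chr7:45163671-45163920: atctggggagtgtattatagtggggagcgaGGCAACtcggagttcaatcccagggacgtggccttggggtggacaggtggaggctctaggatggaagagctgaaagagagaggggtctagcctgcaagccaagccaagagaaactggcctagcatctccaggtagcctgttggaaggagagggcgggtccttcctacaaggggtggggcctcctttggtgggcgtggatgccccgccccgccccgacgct

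The window of Spag16, which encodes a protein of the cilium's central pair, holds GGCAAC and then GTTGCC, beginning 111 and 103 bases before the start. These are the same arm read on opposite strands, and paired arms were not searched for. The windows of Dnah10, a dynein heavy chain, and Hydin, another central pair protein, hold 1 arm each, 20 and 13 bases before the start. That of Slc17a7 holds 1 arm 220 bases before the start. Spag16 ran from 2.23 to 6.32 CPM in striatum-labelled and from 0.0953 to 1.68 CPM in cortex-labelled libraries (3.19 ± 0.43, adjusted p = 0.00078). Dnah10 differed by 3.10 ± 0.27 (0.00015) and Hydin by 3.09 ± 0.33 (0.00032). A match describes the letters of the window and shows no binding.

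Choroid plexus and ependymal markers were higher for 9 of 19 members and lower for none, but the members differed. Ttr, the transthyretin of the choroid plexus, held 4527 and 1723 CPM in the striatum-labelled libraries of W816 and W813 and 6326 CPM in the cortex-labelled library of W813, against 5.0 to 306 CPM in the other 13. The difference did not pass the test (-0.25 ± 1.26, adjusted p = 0.897). Tmem212 and Ccdc153, both ependymal, were higher in 8 of 8 animals without overlap (3.70 ± 0.67 with 0.0031, and 3.30 ± 0.56 with 0.0024). Without W813 and W816, 10 choroid plexus and ependymal markers and 48 cilium genes were higher, in a fit that called 1790 of 17103 genes higher.

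Among dopamine genes 7 of 12 were higher and 1 lower. Slc18a2, the vesicular monoamine transporter, ran from 5.67 to 20.4 CPM against 0.0635 to 4.31 CPM (3.96 ± 0.51, adjusted p = 0.00065), and Th, which makes the dopamine precursor, had medians of 12.9 and 3.28 CPM (2.15 ± 0.52, 0.0116). No dopamine gene was lower without W805, W806, W807, W808, W815 or W816 in turn, and 2 were without W813. Of 16 acetylcholine receptors and esterases 5 were higher and 1 lower (3 without W813 or W814 and 2 without W815), of 12 serotonin receptors 4 and 2 (2 higher without W806, W808 or W814), and of 10 adenosine, opioid and cannabinoid receptors 3 and 1. The mu-opioid receptor Oprm1 was higher by 2.19 ± 0.58 (0.0181, and 0.0601 without W816). The kappa receptor Oprk1 was higher by 1.39 ± 0.38 (0.0205), the serotonin receptor Htr4 by 1.37 ± 0.30 (0.0076) and the muscarinic receptor Chrm5 by 2.83 ± 0.47 (0.002). The muscarinic receptor of cortical neurons, Chrm1, was lower by -1.32 ± 0.35 (0.017) and the adenosine receptor Adora1 by -0.78 ± 0.13 (0.0022). Ache, which breaks down acetylcholine, had medians of 165 and 73.1 CPM (1.16 ± 0.17, 0.0011).

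Signalling genes named for the striatum did not move as lists. Of 28 genes of G proteins, adenylyl cyclases and protein kinase A, 3 were higher and 6 lower, and of 22 phosphodiesterases and guanylyl cyclases 4 and 4. The shares of all genes were 16.6% and 15.8%. In the first of these lists 1 was higher without W805, W807, W813 or W816 in turn, and 3 were lower without W816. Pde10a, the phosphodiesterase that is most abundant in medium spiny neurons, ran from 26.4 to 469 CPM and from 26.0 to 426 CPM (0.34 ± 0.59, adjusted p = 0.695). Pde1c was higher (1.43 ± 0.32, 0.0089). Of 17 RGS proteins, which shorten G protein signals, 1 was higher and 6 lower (2 higher without W805, W813 or W814 and 3 without W815). Rgs9, the striatal member, had a difference of 0.75 ± 0.71 (0.447), and Rgs4, a cortical member, had medians of 155 and 544 CPM (-1.35 ± 0.23, 0.0025).

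Of 42 potassium channel genes, 14 were lower and 4 higher. Kcnh3, an ether-a-go-go relative of the forebrain, ran from 18.4 to 120 CPM and from 144 to 318 CPM without overlap (-1.79 ± 0.32, adjusted p = 0.0031). Of 32 sodium, calcium and pacemaker channel genes 7 were called in each direction, where 16.6% of all genes were higher and 15.8% lower. Of these channels 5 were higher without W808, and 9 were lower without W815. Cacna2d2, an auxiliary calcium channel subunit, had medians of 164 and 38.2 CPM (1.90 ± 0.15, 9.4e-05), and the pacemaker channel Hcn4 5.56 and 0.759 CPM (1.88 ± 0.31, 0.0019). Of 25 calcium-binding proteins and calcium-dependent kinases, 13 were lower (9 without W808 or W816) and 1 higher. Cabp1, a calmodulin relative, ran from 30.3 to 83.1 CPM and from 88.4 to 305 CPM (-2.04 ± 0.25, 0.00057).

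Of 28 postsynaptic scaffold genes 8 were lower and none higher, while without W808 or W816 5 were lower and without W807 1 was higher. Synpo, the spine apparatus protein synaptopodin, had medians of 97.5 and 226 CPM (-1.35 ± 0.28, adjusted p = 0.0057). Of 28 glutamate receptor and vesicular transporter genes 8 were higher and 5 lower, but without W816 5 were higher, without W806, W808 or W816 2 were lower, and without W805 3 were. The NMDA receptor subunit Grin2d was higher by 1.15 ± 0.17 (0.0012), and Grin2a was lower by -1.35 ± 0.38 (0.0217, and 0.0504 to 0.06 without W805, W806, W808 or W816).

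Immediate early genes, which neurons transcribe within minutes of activity, were lower as a group: 17 of 25 were lower, none was higher, and the median was -0.90. The number lower was 12 without W808 or W816 and 13 without W814. Egr1, a zinc finger factor, ran from 30.8 to 208 CPM in striatum-labelled and from 139 to 519 CPM in cortex-labelled libraries (-1.24 ± 0.30, adjusted p = 0.0113, lower in 8 of 8). Nr4a1, an orphan nuclear receptor, had medians of 56.9 and 119 CPM (-1.31 ± 0.24, 0.0033). Bdnf, the growth factor that cortical neurons supply to the striatum, had medians of 10.5 and 24.3 CPM (-1.29 ± 0.36, 0.0219), and its adjusted p was 0.0571 and 0.0582 without W806 or W816. Among other trophic genes, the receptor Ret was higher in 8 of 8 animals without overlap, from 14.6 to 56.2 CPM against 2.84 to 12.2 CPM (2.56 ± 0.23, adjusted p = 0.00015).

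Axon guidance genes went both ways, with 12 of 44 higher (9 without W806) and 9 lower, against 16.6% and 15.8% of all genes. Plxnd1, a semaphorin receptor, ran from 16.7 to 58.9 CPM and from 83.1 to 164 CPM without overlap (-1.76 ± 0.25, adjusted p = 0.0011), and Slit1, a repulsive ligand, had medians of 129 and 61.7 CPM (1.05 ± 0.09, 0.00011). Of 24 cadherins 8 were higher and none lower (5 higher without W806 or W816, 1 lower without W805 or W814 and 2 without W807 or W815), led by Pcdh17 (1.45 ± 0.15, 0.0003). Rasd1, a steroid-induced Ras relative, was higher by 1.80 ± 0.25 (0.00085) and Rasgef1c, a Ras exchange factor, lower by -1.38 ± 0.13 (0.00018).

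Microglial, vascular and oligodendrocyte lists held no member called at 2-fold or more. All 20 microglial markers had a negative log2 fold change, 14 were called lower, and the median was -0.44. Fcrls, an Fc receptor relative, had medians of 12.5 and 20.3 CPM (-0.77 ± 0.09, adjusted p = 0.00037), and Trem2, a lipid receptor, 11.1 and 18.7 CPM (-0.69 ± 0.10, 0.0011). Of 18 endothelial markers 7 were lower and of 12 pericyte and smooth muscle markers 5, and 1 endothelial marker was higher without W813 or W814 and 1 pericyte marker without W813. All 5 haemoglobin and erythroid genes tested were lower, with a median of -0.82, and Hbb-bs ran from 10.9 to 39.9 CPM and from 22.1 to 55.3 CPM (-0.84 ± 0.13, 0.0016). Of 12 meningeal fibroblast markers 4 were lower. The part of blood and vessel content of the samples in other genes was not tested. Oligodendrocyte and myelin markers all had a positive log2 fold change, with a median of 0.39, but 1 of 22 was called, and none without W805, W806, W807, W814 or W816 in turn. Among 20 astrocyte markers 8 were higher and 1 lower (none without W806, W808, W813 or W816, and 3 without W815). Agt, the angiotensinogen made by astrocytes of deep forebrain regions, ran from 51.5 to 427 CPM against 4.06 to 38.0 CPM without overlap (2.57 ± 0.49, 0.004). Of 14 housekeeping genes 4 were lower, none by more than -0.41, and without W816 2 were lower.

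**Figure D4:**
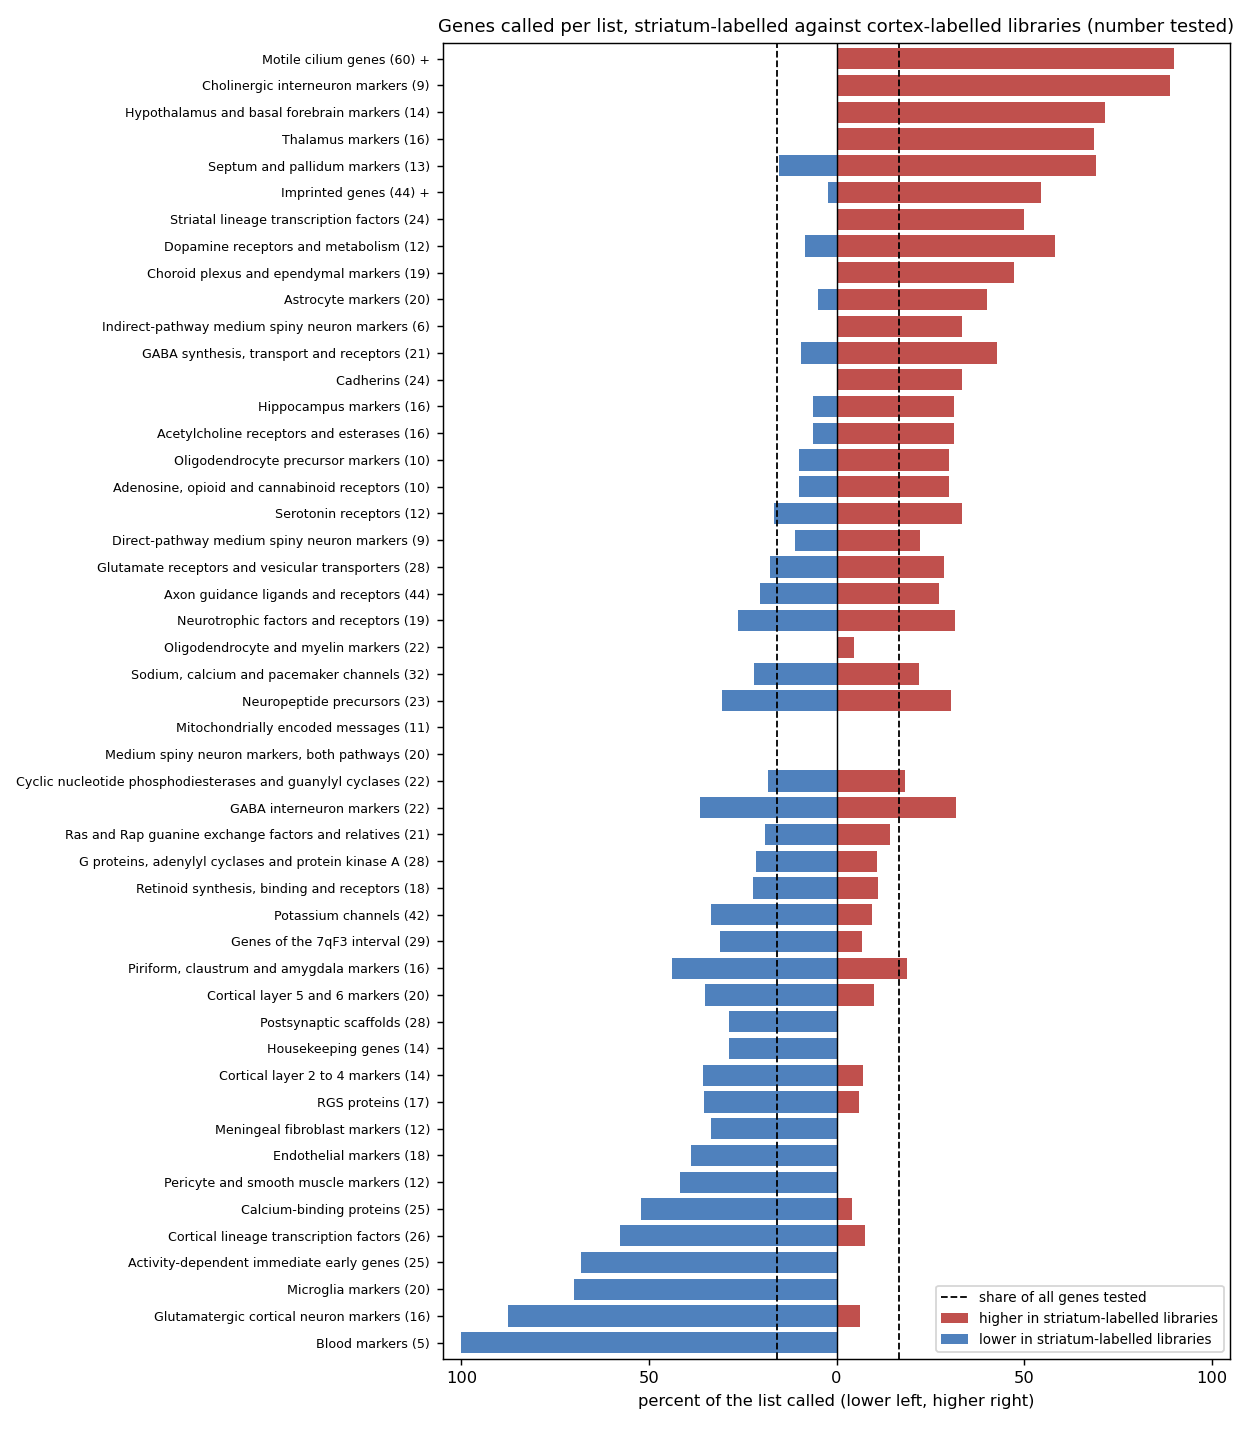
Percent of the tested members of each gene list (y axis, number tested in brackets) called higher (right, red) or lower (left, blue) in striatum-labelled than in cortex-labelled libraries at an adjusted p under 0.05, with dashed lines at the shares of all 17059 genes, 16.6% and 15.8%. Lists with a plus sign were drawn up after the values were seen; blood, glutamatergic and microglial markers lie at the lower end, cilium, cholinergic and hypothalamic ones at the upper end, and the 20 medium spiny neuron markers have no call.

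The genes of most lists were named by a rule on size and call, while Baiap3, Dlx1, Dlx2, Dlx5, Dlx6, Dnah10, Egr1, Foxj1, Hydin, Magel2, Peg10, Rfx2, Slc32a1 and Spag16 were list members chosen after their values were seen. The largest falls included genes with little in common by name. Gm11549, a long noncoding RNA gene, had medians of 1.43 and 41.1 CPM (-4.25 ± 0.80, adjusted p = 0.0038), and Igfn1, an immunoglobulin-domain protein, 1.80 and 39.1 CPM (-3.95 ± 0.68, 0.0024). Krt12, a keratin, ran from 0.268 to 6.38 CPM and from 6.45 to 30.5 CPM without overlap (-3.55 ± 0.44, 0.00059). The falls of smallest p were smaller. Gng13, a G protein gamma subunit, differed by -1.51 ± 0.10 (5.6e-05), Ttc9b by -1.81 ± 0.13 (8.85e-05), and Kcnip3, a calcium-binding potassium channel partner, by -0.93 ± 0.07 (9.4e-05), each lower in 8 of 8 animals.

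In these wild-type animals both copies of the 7qF3 interval are present. Of 29 interval genes tested 9 were lower and 2 higher, against 15.8% and 16.6% of all genes, and the median was -0.10. Leaving out any 1 animal left 1 higher, or none without W805. Coro1a, an actin-binding coronin (chromosome 7, 126699773 to 126707787), ran from 44.6 to 133 CPM and from 87.6 to 274 CPM (-0.85 ± 0.11, adjusted p = 0.00061). Aldoa, the glycolytic aldolase (126795234 to 126800751), had medians of 1601 and 2236 CPM (-0.34 ± 0.08, 0.0131), Cdipt, which makes phosphatidylinositol, 128 and 189 CPM (-0.44 ± 0.09, 0.0046), and the zinc finger factor Maz 168 and 211 CPM (-0.30 ± 0.07, 0.0109). The kinase Taok2 ran from 155 to 189 CPM and from 141 to 159 CPM (0.17 ± 0.06, 0.0426), but its adjusted p was 0.0509 to 0.115 without any 1 of the 8 animals. The other higher gene, AI467606, had an adjusted p of 0.0208 and 0.0503 without W805. Mapk3 (-0.07 ± 0.13, 0.699) and Sez6l2 (0.09 ± 0.09, 0.456) did not pass the test. Aldoa shares bases with Fam57b and Coro1a with Bola2, so their counts may share reads.

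A difference of the contrast between the sexes was called for 0 genes by edgeR's test of the interaction, with 1356 genes more positive and 914 more negative in females at an unadjusted p under 0.05, while DESeq2 called 58 and 10. Within males 1409 of 17149 genes tested were higher and 1333 lower, and within females 1118 and 637 of 17255. The list counts of each sex are to be read beside these. Among glutamatergic cortical markers 14 of 16 were lower in males and 1 in females, with medians of -2.70 and -1.05. Without W805, W806, W815 and W816, whose cortex-labelled libraries were high in medium spiny neuron markers, 1 was lower and the median was -2.06. That fit called 254 of all 17046 genes tested lower. The 3 striatum-labelled libraries with cortex-like levels of that list were all female.

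The same contrast in the 8 deletion animals, which share no library with the wild-type contrast, called 2118 genes higher (12.5% of 17003) and 2396 lower (14.1%). Of the genes called in wild-type animals, 1481 higher and 1543 lower ones were called with the same sign there and 1 with the opposite. No medium spiny neuron marker of the 20 was called in deletion animals either, with a median of -0.04, while 15 of 16 glutamatergic markers were lower (-2.35). In deletion animals 8 of 9 cholinergic, 12 hypothalamic and 37 cilium markers were higher, against 8, 10 and 54 in wild-type animals. The cilium list was drawn up after the wild-type values were seen. A difference of the contrast between the genotypes was called for 0 genes by edgeR, with 327 and 435 at an unadjusted p under 0.05 in the 2 directions and 2 and 1 called by DESeq2.

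**Figure D5:**
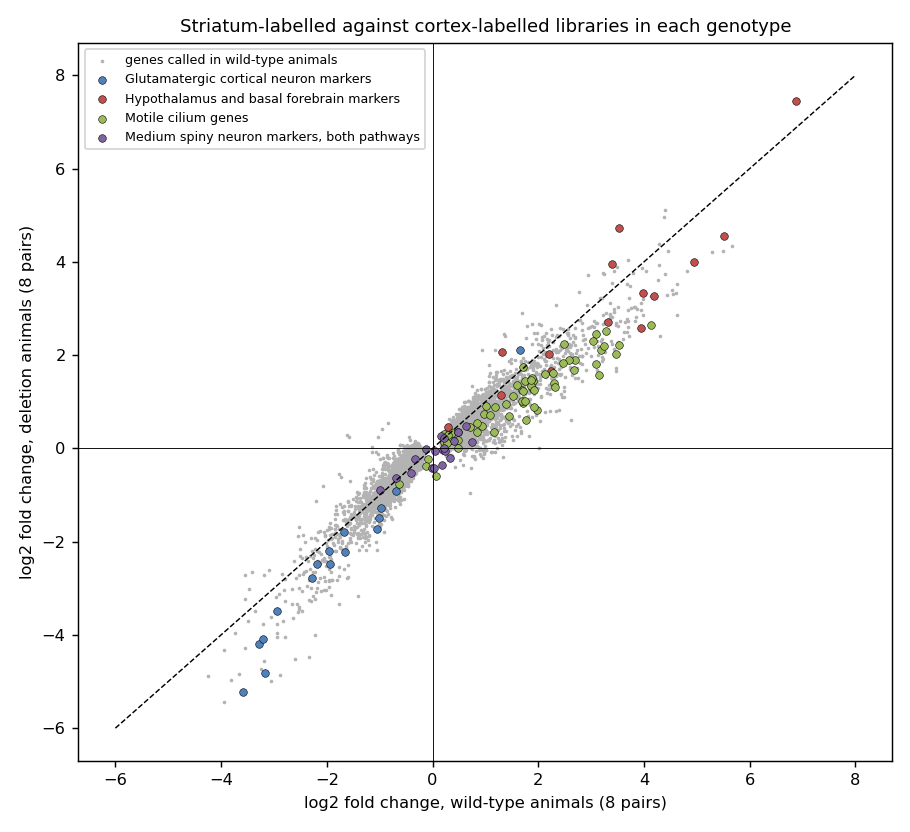
Log2 fold change between striatum-labelled and cortex-labelled libraries in the 8 deletion animals (y axis) against that in the 8 wild-type animals (x axis), for the genes called in wild-type animals (grey) and 4 gene lists (coloured), with a dashed line where both are equal. Since the grey genes were chosen by their call in wild-type animals, their spread on the x axis is set by that choice; glutamatergic markers lie at the lower left, hypothalamus and cilium genes at the upper right and medium spiny neuron markers near the origin.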

How the data were processed

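The authors deposited a table of read counts per gene for all 48 libraries, from which the 16 wild-type striatum-labelled and cortex-labelled columns were used. FastQC 0.10.1, STAR 2.4.2a, Picard and SAMtools are named per the submitters' processing notes, as are the builds GRCm38 and mm8, with no role given. What counted the reads, on which annotation and with which strand setting is not given here in any source used. The 92 spike-in rows were left out, which left 47069 genes. Of these, 46574 identifiers matched GENCODE vM21, and the other 495 held 0.0580% of the counts.

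Genes were filtered with filterByExpr at its defaults and scaled by TMM in edgeR 4.0.16 (R 4.3.3). The quasi-likelihood fit had tissue label and animal as terms and 7 residual degrees of freedom, and adjusted p-values are Benjamini-Hochberg values over all genes tested. CPM used TMM-scaled library sizes, and log2 CPM a prior count of 2. Standard errors were derived from the fitted log2 fold change and its F value. The script was tested on simulated data. Animals pair the libraries per the labels. The deviations of the 2 libraries of an animal from their group means correlated at 0.187 to 0.698.

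Text genes were the 15 largest rises and 15 largest falls with the same sign in all animals, the 5 of smallest p in each direction, up to 6 called and 2 uncalled members of each list, and a few fixed genes, plus list members named as chosen after their values were seen. The comparison, members and lists were chosen with earlier results of these data known, and 2 lists (motile cilium and imprinted genes) after the values were seen. Alternatives were DESeq2 1.42.0, its size factors, no filter, no animal block, all 24 wild-type libraries, each sex alone, and fits without single animals or without libraries whose markers went against the label. Some genes that this rule names are not reported here.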

Additional observations from a re-analysis of the deposited data

Results flagged for a closer look

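Of 348 sets of 8 libraries (125 genes and 49 lists, each label apart), 17 (4.89%) held a highest or lowest library set far apart from the rest, and chance flags about 5%. In the striatum-labelled library of W813, Chat stood at -1.80, Lhx8 at -2.66 and Gbx2 at -2.16 log2 CPM, each the lowest. The mean log2 CPM of the cholinergic list (0.20) and of the septum and pallidum list (3.08) were lowest in the same library.

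In the cortex-labelled library of W813, Pdyn (4.46 log2 CPM) and Rgs4 (8.02) were set apart at the low end and the meningeal fibroblast list (4.46) at the high end. The cortex-labelled library of W816 was high in Avp (4.68) and Oxt (3.49). In the striatum-labelled library of W814, Baiap3 (5.94) and Dlk1 (4.48) were low and Slc17a6 (7.30) was high. Egr1 was low in the striatum-labelled library of W807 (4.95), and the retinoid list in that of W805 (2.62). The GABA interneuron list was high in the cortex-labelled library of W808 (4.69), and the thalamus list in that of W815 (4.59).

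The mean within-animal difference of the acetylcholine receptor and esterase list was negative in each of the 4 males (-0.28 to -0.07) and positive in each of the 4 females (0.06 to 1.01), a gap of 0.56 log2 CPM that was not tested.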

How the results depend on the processing

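The counts of 2830 higher and 2688 lower genes were 1667 and 1524 with no animal block (the pairing left out), 1409 and 1333 in males, 1118 and 637 in females, 1790 and 1543 without W813 and W816, and 455 and 254 without W805, W806, W815 and W816, fits with fewer animals apart from the first. Leaving out each animal in turn gave 1993 to 2769 higher and 1820 to 2701 lower, and at 2-fold 821 to 949 and 439 to 611. At 2-fold, 415 were higher and 198 lower without W805, W806, W815 and W816, 179 were lower in females, 1591 were higher with 5 striatum-labelled and 4 cortex-labelled libraries (chosen after seeing the data, as was the fit without W805, W807 and W813), and a test against a 2-fold difference called 315 and 63. The animals of the fits without W813 and W816 and without W805, W806, W815 and W816 were also named with values of these data known. DESeq2 called 58 and 10 genes for the sex difference and 2 and 1 for the genotype difference. The planned fit without animals whose striatum-labelled library had more thalamus than medium spiny neuron markers was not run, since 0 animals met it.

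Of 106 called genes in the text, none changed direction in any of these fits. Most were named by their call and size, and the fits share libraries with the main one, so this only describes. Of all 2830 higher and 2688 lower genes, 2781 and 2682 kept their direction without W805, W806, W815 and W816. Of the 106 text genes, DESeq2 kept the call of 106, the fit with no animal block 92, females alone 65, and the fit without W805, W806, W815 and W816 56 of the 104 it tested. Uncalled genes that changed direction were Adora2a (-0.17 in females), Arpp21 (0.33 with 5 and 4 libraries), Foxp1 (0.0087 without W805, W807 and W813 and 0.62 with 5 and 4 libraries), Mapk3 (0.0725 without W805, W806, W815 and W816) and Sez6l2 (-0.0525 and -0.11 in the last-named fits of Foxp1). Meis2 was 0.22 with no animal block, 0.30 with all 24 wild-type libraries, 0.0104 in males, 0.28 without W813 and W816, 0.78 without W805, W807 and W813 and 1.37 with 5 and 4 libraries. Ppp1r1b was 0.90 without W805, W806, W815 and W816, 0.40 without W805, W807 and W813 and 2.10 with 5 and 4 libraries. The animals or libraries of these fits were chosen by their medium spiny neuron markers. Ppp1r1b and Arpp21 are among those markers, so their values in these fits only describe and test nothing. Ttr was 0.38, 1.02 and 0.21 in the same fits, in that order, and 0.0839 in females. Rfx3 was -0.55 in males and -0.013 without W805, W806, W815 and W816. Over the fits leaving out 1 animal, Adora2a ran from -0.40 to 0.81, Drd1 from -0.28 to 0.59, Meis2 from -0.31 to 0.21, Pde10a from -0.0671 to 0.73, Ppp1r1b from -0.82 to 0.0602, Rfx3 from -0.11 to 0.26 and Ttr from -0.86 to 0.35. Apart from that selection on medium spiny neuron markers, the cause of these changes was not tested.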
